A study of Mus musculus with 8 samples.

Results

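The 10 genes of the activin and TGF-beta pathway followed here in mouse CD8+ T cells with and without LKB1 are the ligand genes Inhba and Tgfb1, the receptor genes Tgfbr1, Tgfbr2, Acvr1b and Acvr2a, the signal carriers Smad2 and Smad3, the inhibitor Smad7, and Furin, the protease that cuts ligand precursors. They were picked by exact gene symbol and all 10 were present among the 24421 genes of the deposited count tables. Large rises of Inhba and Furin in an earlier look at this same contrast were known when the genes were picked. The values of these genes between the groups are therefore a description, given without p-values.

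CD8+ T cells are the lymphocytes that kill infected and tumour cells. LKB1 is the product of Stk11 and switches on AMPK and related kinases by phosphorylating them. The 4 control libraries came from cells labelled LKB1 wild type and the other 4 from cells labelled LKB1-deficient. All were made from naive cells stimulated for 48 h with antibodies against CD3 and CD28 bound to the plate, and RNA was read as tags of transcript 3' ends. For the strain, age and sex of the mice, the deleted exons, the promoter behind the deletion and any pooling of animals, no statement was found in the labels. Nothing in the labels says whether replicates came from separate mice, and p-values then cover only the spread of these samples, which may be technical.

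Activins and TGF-beta are secreted dimers of one growth factor superfamily. Each is made as a precursor that a proprotein convertase such as furin cuts at a basic site. The mature dimer brings a type II receptor (TGFBR2, ACVR2A) together with a type I receptor (TGFBR1, ACVR1B), which phosphorylates SMAD2 and SMAD3; these join SMAD4 and act on genes in the nucleus. SMAD7, itself a target of the pathway, blocks the type I receptor and brings ubiquitin ligases to it. In CD8+ T cells TGF-beta is known for restraining cytotoxic genes and for inducing the integrin CD103, encoded by Itgae, and activin A is the homodimer of the INHBA chain.

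The depth was 7090252 to 12211930 gene counts in the control libraries and 3454388 to 6356125 in the LKB1-deficient ones. The control libraries lay at -37.9 to -21.7 on the first principal component, which held 56.4% of the variance. LKB1-deficient replicates 2 and 4 stood apart from the rest, at 51.7 and 54.4 against 12.5 and 6.79 for replicates 1 and 3. Log2 fold changes of the tested genes among the 10 are therefore given below with and without replicates 2 and 4. The targeted gene, Stk11, had a level of 81.9 ± 13.9 CPM (counts scaled to library size, SD, n = 4) in control libraries, against 79.8 ± 19.1 CPM in the others. A 3' tag may lie outside the deleted part, so this does not check the genotype labels. Cd3d, Cd3e, Cd3g, Cd8a and Cd8b1, which define the labelled cell type, had counts in all libraries, and their summed level was 2980 to 3530 CPM in control and 1500 to 2430 CPM in LKB1-deficient libraries; Cd3d, Cd3g and Cd8a were called lower, and Cd3e and Cd8b1 were not called. Summed levels of the other marker lists, control then LKB1-deficient, were 6.11 to 7.96 and 4.85 to 10.1 CPM for 8 macrophage and dendritic cell genes. They were 7.23 to 12.6 and 4.56 to 7.88 CPM for 5 B cell genes, with Pax5 at 0 in every library and Cd79b, the only one tested, called lower. They were 37.1 to 57 and 11.4 to 39.8 CPM for 5 genes of CD4+ and regulatory T cells, and 75.3 to 127 and 91.4 to 166 CPM for 5 NK cell genes, with Klra8 at 0. In the first list Ctla4 was at 22.7 to 40 and 1.75 to 26.4 CPM, Cd4 at most 1.17 and 0.563 and Foxp3 at most 0.162 and 0.583. Most of the NK sum was Eomes (65.9 to 116 and 82.9 to 151 CPM), treated below as a CD8+ T cell regulator. Klre1 was at 7.66 to 11.5 and 7.71 to 13.2 CPM, Klrb1c at most 0.227 and 2.04 and Ncr1 at most 0.39 and 0.583. Summed levels for 5 stromal genes were at most 0.757 and 0.63 CPM, with Col3a1 and Dcn at 0. For 8 mast cell and basophil genes they were 9.09 to 12.2 and 14.6 to 39.9 CPM, and 2 of the 5 tested genes of that list, Gata2 and Il1rl1, were called higher, beside 12.4% of all tested genes. Most libraries in which Gata2 reached the filter on low counts, given below, were LKB1-deficient ones.

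The bases before the start sites of Inhba and Furin are shown because these genes stood farthest above control. Each window holds the 250 bases before a RefSeq start site of GRCm38.p6, 5′ to 3′ on the gene's strand. Capitals mark matches on either strand to 5 motifs: the AP-1 site TGANTCA, the cyclic AMP response element TGACGTCA and its core TGACG, the SMAD-binding core CAGAC and the NFAT core GGAAA. No printed base lies in an untranslated region that the GENCODE vM21 annotation gives for these genes. The Inhba window is chr13:16011601-16011850 on the plus strand, and the Furin windows, 1 for each of 2 start sites, are chr7:80405437-80405686 and chr7:80402813-80403062 on the minus strand.
Inhba: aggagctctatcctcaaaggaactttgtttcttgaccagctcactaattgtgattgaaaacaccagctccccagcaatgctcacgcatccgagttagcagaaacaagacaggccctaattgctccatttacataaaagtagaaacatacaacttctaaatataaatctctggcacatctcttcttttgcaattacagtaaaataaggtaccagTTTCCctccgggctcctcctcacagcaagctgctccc
Furin distal: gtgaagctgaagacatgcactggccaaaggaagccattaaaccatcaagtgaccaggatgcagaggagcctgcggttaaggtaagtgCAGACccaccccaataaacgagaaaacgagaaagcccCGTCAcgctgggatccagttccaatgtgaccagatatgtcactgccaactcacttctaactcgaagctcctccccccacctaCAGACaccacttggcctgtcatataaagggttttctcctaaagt
Furin proximal: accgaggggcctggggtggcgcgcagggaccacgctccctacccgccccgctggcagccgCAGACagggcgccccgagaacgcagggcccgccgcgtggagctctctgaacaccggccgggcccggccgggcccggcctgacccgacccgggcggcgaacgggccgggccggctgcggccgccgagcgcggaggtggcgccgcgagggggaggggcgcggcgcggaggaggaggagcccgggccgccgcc
The Inhba window has a GC content of 43.2% and 1 match, the NFAT core starting 37 bases before the start on the opposite strand; 55.6% of 32851 such mouse windows hold that core. The distal Furin window (50.4% GC) has the SMAD core at 163 and 44 bases and the TGACG core, on the opposite strand, at 126 bases before the start. The proximal Furin window (83.2% GC) has the SMAD core at 190 bases. The SMAD core is found in 42.2% and TGACG in 17.8% of all windows. Neither the full AP-1 site (6.75% of windows) nor the full response element (1.55%) is in these 3 windows. A match is a run of letters, not a shown binding site.

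Of the 10 genes, 8 passed the filter on low counts, which asked for at least 1.49 CPM in 4 libraries. Inhba passed in 3 control and 4 LKB1-deficient libraries, so it was tested only because of the latter group, and the other 7 passed in all 8 libraries. Among the 8, edgeR's quasi-likelihood test over all 10396 tested genes (Benjamini-Hochberg adjusted p under 0.05) called 5 higher in LKB1-deficient cells (Inhba, Furin, Tgfb1, Smad7 and Smad3) and none lower. Over all tested genes it called 22.5%, with 12.4% higher and 10.1% lower. The groups did not overlap in the same 5 genes, against 26.1% of all tested genes, 12% with LKB1-deficient libraries higher and 14.1% with them lower. The median log2 fold change was 0.98 for the 8 genes and 0.00 for all tested genes. Nothing is read from these counts, since the genes were picked with this contrast known. Bulk RNA cannot tell fewer cells of a type from less RNA per cell.

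**Figure D1:**
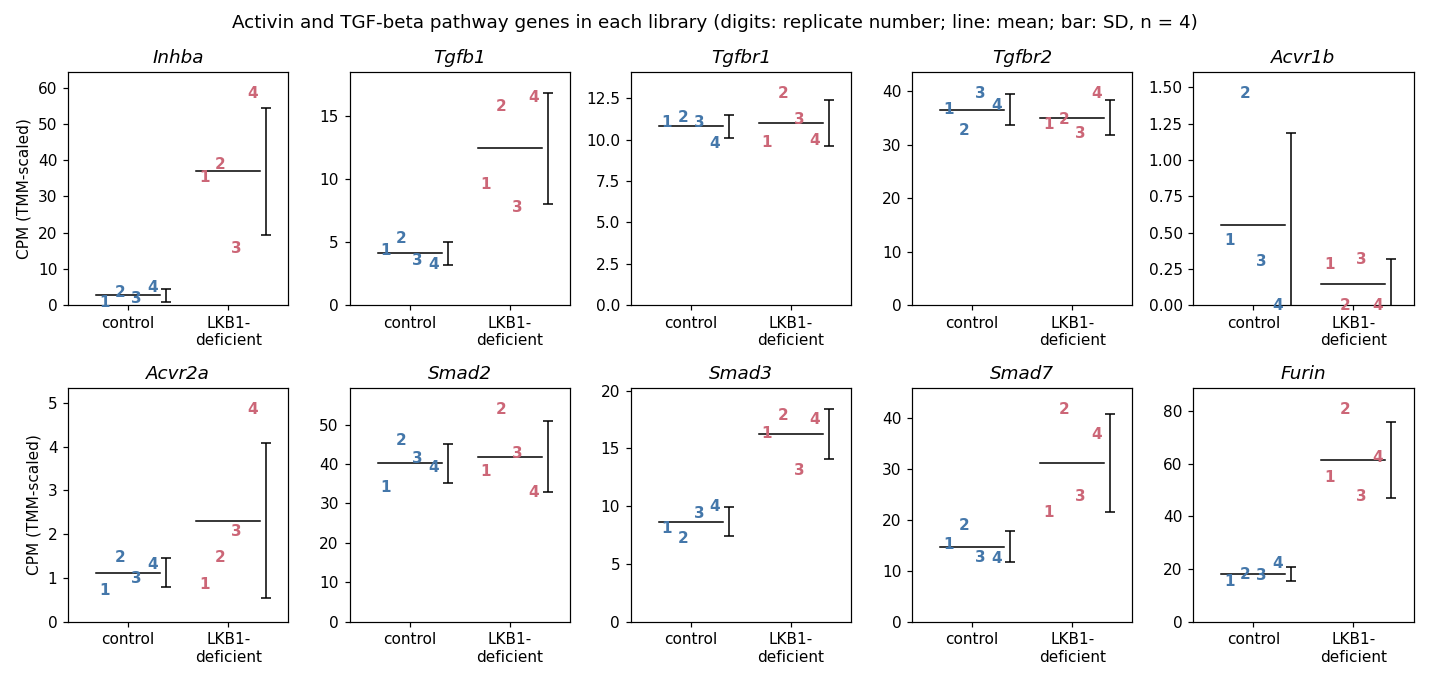
Level of each of the 10 genes in CPM (counts scaled to TMM-adjusted library size, vertical axis from 0) in the 4 control (blue) and 4 LKB1-deficient (red) libraries, shown as replicate numbers, with the mean as a line and the SD as a bar that is clipped at 0. The groups separate for Inhba, Tgfb1, Smad3, Smad7 and Furin and overlap for Tgfbr1, Tgfbr2, Acvr1b, Acvr2a and Smad2.

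Inhba encodes the beta A chain of activin A and inhibin A (ENSMUSG00000041324.14, protein coding, chr13:16011851-16031621, plus strand, GRCm38). It was at 0.719, 3.66, 1.97 and 4.81 CPM in control replicates 1 to 4, and at 35.2, 38.8, 15.7 and 58.5 CPM in LKB1-deficient replicates 1 to 4. The control values rest on 8, 45, 26 and 37 counts and spread more widely in relative terms than the LKB1-deficient ones (highest over lowest 6.69 against 3.72). Every LKB1-deficient library lay above every control library, replicate 3 by 3.27-fold and replicate 4 by 12.2-fold over the highest control. The log2 fold change was 3.76 ± 0.51 (SE), or 13.5-fold, and 3.21 without LKB1-deficient replicates 2 and 4. The noncoding gene Gm48444 lies on the opposite strand across the 3' end of Inhba (chr13:16025382-16032275). It has no row in the count tables, and whether counting used the strand is not given in the sources used here, so its tags could not be told apart from those of Inhba if it did not.

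Tgfb1, the ligand gene of TGF-beta 1 (ENSMUSG00000002603.15, chr7:25687002-25705077, plus strand), was at 4.31, 5.28, 3.56 and 3.25 CPM in control and 9.57, 15.7, 7.71 and 16.4 CPM in LKB1-deficient replicates 1 to 4. The groups did not overlap, although LKB1-deficient replicate 3 was only 1.46-fold above the highest control. The log2 fold change was 1.56 ± 0.28 (SE), or 2.95-fold. Without LKB1-deficient replicates 2 and 4 it was 1.05 and Tgfb1 was no longer called.

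Furin (ENSMUSG00000030530.15, chr7:80388585-80405436, minus strand) was at 15.1, 17.8, 17.6 and 22 CPM in control and 54.9, 80.7, 47.5 and 62.5 CPM in LKB1-deficient replicates 1 to 4. The lowest LKB1-deficient library was 2.17-fold above the highest control. The log2 fold change was 1.76 ± 0.19 (SE), or 3.39-fold, and 1.50 without LKB1-deficient replicates 2 and 4.

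The TGF-beta receptor genes Tgfbr1 and Tgfbr2 did not separate the groups. Tgfbr2, the type II receptor that binds the ligand, was at 36.5, 32.6, 39.5 and 37.3 CPM in control and 33.8, 34.7, 32 and 39.6 CPM in LKB1-deficient replicates 1 to 4. Its log2 fold change was -0.06 ± 0.12 (SE). Tgfbr1, the type I kinase, was at 11, 11.3, 11 and 9.74 CPM in control and 9.85, 12.8, 11.2 and 9.97 CPM in LKB1-deficient replicates 1 to 4, a log2 fold change of 0.02 ± 0.15 (SE). Their sizes depend on how transcript length is treated. The longest transcripts are 8092 bases for Tgfbr2 and 5756 for Tgfbr1, and with each library's trend on length removed the log2 fold changes were -0.52 and -0.23, and Tgfbr2 was then called lower. With total count scaling, which moved the median of all genes to -0.16, they were -0.23 and -0.14. Without LKB1-deficient replicates 2 and 4 they were -0.15 and -0.02. The share of Tgfbr1 in the counts of both genes needs no scaling between libraries; it was 22.8% ± 2.14 in control and 23.9% ± 3.15 in LKB1-deficient cells (SD, n = 4), and the ranges overlapped.

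The activin receptor genes in this set were near the limit of detection and were not tested. Acvr1b, the type I receptor of activin, had 5, 18, 4 and 0 counts in control and 1, 0, 2 and 0 in LKB1-deficient replicates 1 to 4. Over the summed libraries this was 0.609 against 0.176 CPM, a ratio of 0.289 with a 95% exact interval of 0.0561 to 0.939 that covers counting error only, and 18 of the 27 control counts came from 1 library. Acvr2a, the type II receptor, was at 0.719, 1.46, 0.984 and 1.3 CPM in control and 0.844, 1.46, 2.05 and 4.85 CPM in LKB1-deficient replicates 1 to 4. The groups overlapped, and LKB1-deficient replicate 4 stood above the rest. Orc4 overlaps the 3' end of Acvr2a on the opposite strand, and has its own row in the count tables; if counting did not use the strand, tags from the overlap could not be assigned to either gene. A level of 3 counts is 0.227 to 0.39 CPM in control and 0.472 to 0.874 CPM in LKB1-deficient libraries, so low genes are less precise in the latter.

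SMAD2 and SMAD3 carry the signal to the nucleus. Smad3 (ENSMUSG00000032402.12, chr9:63646767-63757994, minus strand) was at 8.09, 7.15, 9.38 and 10 CPM in control and 16.3, 17.8, 13.1 and 17.5 CPM in LKB1-deficient replicates 1 to 4. The groups did not overlap, and the log2 fold change was 0.90 ± 0.17 (SE), or 1.86-fold. Without LKB1-deficient replicates 2 and 4 it was 0.76 and not called. Smad2 was at 34, 45.9, 41.5 and 39.2 CPM in control and 38, 53.9, 42.7 and 32.9 CPM in LKB1-deficient replicates 1 to 4, with overlapping groups. Its log2 fold change was 0.06 ± 0.17 (SE), or -0.39 with the length trend removed and 0.01 without LKB1-deficient replicates 2 and 4. Within each library, Smad3 made up 19.2%, 13.5%, 18.5% and 20.3% of the counts of Smad2 and Smad3 together in control replicates 1 to 4. The share was 30.1%, 24.8%, 23.4% and 34.8% in LKB1-deficient replicates 1 to 4. These shares, which do not depend on library scaling and are no ratio of molecules, did not overlap between the groups (17.9% ± 3.01 against 28.3% ± 5.22, SD, n = 4).

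Smad7, the inhibitory SMAD, was at 15.1, 18.8, 12.5 and 12.3 CPM in control and 21.4, 41.7, 24.6 and 36.7 CPM in LKB1-deficient replicates 1 to 4. LKB1-deficient replicate 1 was only 1.14-fold above the highest control, and replicate 2 was 2.22-fold above it. The log2 fold change was 1.07 ± 0.23 (SE), or 2.1-fold. It was 0.65 without LKB1-deficient replicates 2 and 4, and Smad7 was then not called.

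**Figure D2:**
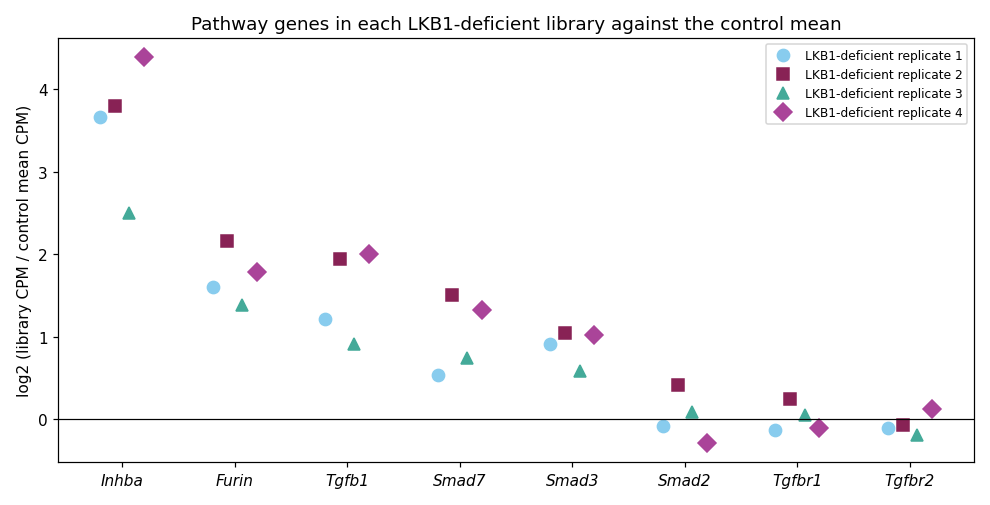
Log2 ratio of the CPM in each LKB1-deficient library to the mean CPM of the 4 controls (vertical axis) for the 8 tested genes, 1 symbol per library, with 0 as a line. LKB1-deficient replicates 2 and 4 lie above replicates 1 and 3 for Inhba, Furin, Tgfb1, Smad7, Smad3 and Tgfbr2, and the values of Smad2, Tgfbr1 and Tgfbr2 lie between -0.29 and 0.42.

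In 6 of the 8 tested genes, the 5 called ones and Tgfbr2, LKB1-deficient replicates 2 and 4 were both above replicates 1 and 3, as on the first component. The same held for 61.7% of all 1286 genes called higher and for 26.9% of all tested genes. Replicate 3 was the lowest LKB1-deficient library for Inhba, Furin, Tgfb1 and Smad3, and replicate 1 was the lowest for Smad7. The summed mast cell and basophil markers were also highest in LKB1-deficient libraries, but unevenly so. Gata2 reached 9.62 CPM in replicate 2 and 8.36 in replicate 4, with 0.563 in replicate 1 and 2.36 in replicate 3. Il1rl1 and Kit were likewise higher in replicates 2 and 4 than in the others, while Mcpt8 and Hdc did not follow this order. Cd3d, Cd3g, Cd8a and Cd8b1 were lower in replicates 2 and 4 than in 1 and 3, and Cd3e was not. The part of these markers in the values of the pathway genes was not tested. The sample identifiers begin with ET for replicate 1 and with EU for replicates 2 to 4 of both groups. In the EU libraries alone the log2 fold changes were 3.45 for Inhba, 1.73 for Furin, 1.68 for Tgfb1, 1.22 for Smad7 and 0.86 for Smad3, and all 5 were called. With 1 ET library in each group no test was possible; there Inhba was at 0.719 and 35.2 CPM and Furin at 15.1 and 54.9 CPM.

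**Figure D3:**
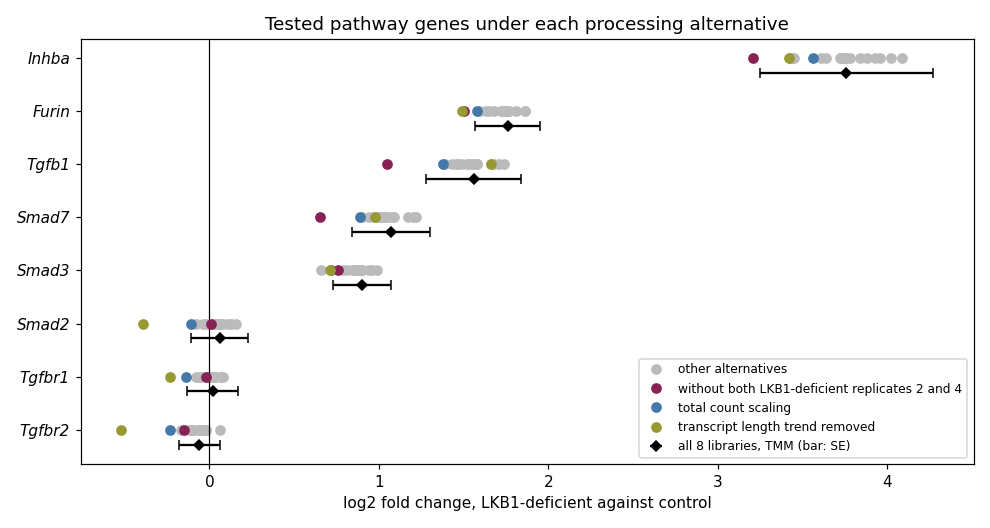
Log2 fold change, LKB1-deficient against control (horizontal axis), of the 8 tested genes with all 8 libraries and TMM scaling (black diamonds, bar SE) and under each processing alternative (dots, 4 kinds by colour). Inhba and Furin stay at or above 3.21 and 1.49, Smad3 and Smad7 at or above 0.66 and 0.65, and Tgfbr2 reaches -0.52 with the length trend removed.

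The genes whose levels followed Inhba and Furin most closely were found by Pearson's r of log2 (CPM + 0.5) over the 8 libraries. They were sought among 7706 tested genes with a mean of at least 10 CPM, with predicted genes, such as those named Gm or Rik, left out. For Inhba these were Vim (r = 0.991), encoding the intermediate filament vimentin, Fam46a (0.986), Mfsd2a (0.984), Slc45a4 (0.984) and Sytl3 (0.981). For Furin they were Runx2 (0.992), a Runt-family transcription factor gene, Nbeal2 (0.992), Nomo1 (0.992), Pim1 (0.991), a kinase gene, and Map2k3 (0.991), a kinase of the p38 pathway. The points share the 2 groups and the depth of each library, so a gene that differs between the groups gains a high r from that alone. With group means taken out, r was 0.86 to 0.95 for the 5 genes beside Inhba and 0.89 to 0.98 for the 5 beside Furin; these genes were chosen on the same libraries, so high values are part of the choice. Vim went from 286 ± 69.5 to 1060 ± 222 CPM and Map2k3 from 114 ± 18.3 to 225 ± 38.6 CPM (SD, n = 4 each).

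Around these 10 genes, a list of 105 symbols of other pathway genes by role was examined. Of these, 103 were in the count tables. The symbols without a row, Cripto and Ccn2, are other names of Tdgf1 and Ctgf, which are also listed. Of the 103 genes, 21 had no count in any library and 52 were tested. In the fit over all genes 17 of the 52 rose in LKB1-deficient cells, 3 fell and 32 did not pass, or 38.5% called beside 22.5% of all tested genes. Their median log2 fold change was 0.43. Without both LKB1-deficient replicates 2 and 4, 4 rose and 2 fell. Leaving out only control replicate 3 or only LKB1-deficient replicate 4 gave 10 higher and 3 lower, and leaving out only LKB1-deficient replicate 2 gave 11 higher.

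Among ligands and the proteins that hold or release them, few transcripts were seen. Of 17 other ligand genes, 6 had no count and only Gdf11, an activin-like ligand, was tested. Most libraries in which Gdf11 reached the filter's 1.49 CPM were LKB1-deficient ones. Gdf11 was at 1.08, 2.44, 0.303 and 0.52 CPM in control and 0.563, 6.41, 1.73 and 10.2 CPM in LKB1-deficient replicates 1 to 4 (log2 fold change 2.03 ± 0.79 SE, edgeR adjusted p = 0.085), with overlapping groups; without control replicate 2 or LKB1-deficient replicate 1 it passed (adjusted p = 0.0485 and 0.0418). Tgfb2, named after its values were seen, had 14 counts in all control and 52 in all LKB1-deficient libraries, with 5.83 and 4.58 CPM in LKB1-deficient replicates 2 and 4 and at most 2.25 CPM elsewhere; it was under the filter. Itgav, the integrin alpha V chain that takes part in releasing latent TGF-beta, rose from 25.6 ± 3.37 to 45.5 ± 9.28 CPM (log2 fold change 0.83 ± 0.17 SE, edgeR adjusted p = 0.0118), with every LKB1-deficient library above every control. Its call ended with the length trend removed (log2 fold change 0.48, adjusted p = 0.154). The integrin partners Itgb6 and Itgb8 had no counts. Nrros, which anchors latent TGF-beta on myeloid cells, was at 44.2 ± 8.9 and 59.5 ± 7.46 CPM and did not pass (adjusted p = 0.09). Of the soluble and membrane antagonists only Bambi, a pseudoreceptor, was tested, at 2.39 ± 0.288 and 2.8 ± 0.932 CPM (adjusted p = 0.7), and follistatin, Fst, had no count.

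Of 5 other receptor genes tested, 2 rose (40%, beside 12.4% of all tested genes), both type I receptors best known for BMP ligands. Bmpr1a went from 4.67 ± 0.485 to 10 ± 2.76 CPM (log2 fold change 1.09 ± 0.23 SE, edgeR adjusted p = 0.012), and its libraries did not overlap. This call ended without LKB1-deficient replicates 2 and 4 (adjusted p = 0.0698) and in libraries thinned to equal depth (adjusted p = 0.0519). Acvr1 rose from 1.39 ± 0.325 to 3.17 ± 1.3 CPM (adjusted p = 0.0405), a call lost in 11 of 18 alternatives, among them those that left out any control library or LKB1-deficient replicate 2 or 4. Fewer than 4 control libraries reached the filter's 1.49 CPM for Acvr1, so it was tested only because of the LKB1-deficient group. Tgfbr3, the co-receptor betaglycan, was at 7.05 ± 1.12 and 4.05 ± 1.51 CPM and did not pass (adjusted p = 0.0639). Every LKB1-deficient library of Tgfbr3 was below every control (2.7 to 5.82 against 6.13 to 8.53 CPM). It passed as lower with upper quartile or total count scaling (adjusted p = 0.0471 and 0.0436) and with DESeq2 (adjusted p = 0.0493). The same held after removal of the length trend (adjusted p = 0.0355) and without LKB1-deficient replicate 3 (adjusted p = 0.0242). Among the other SMADs, Smad1, which carries BMP signals, rose from 16.3 ± 2.23 to 26.1 ± 5.45 CPM (log2 fold change 0.68 ± 0.18 SE, edgeR adjusted p = 0.0247). The groups overlapped for Smad1, with LKB1-deficient replicate 4 at 18.6 CPM and control replicate 1 at 19.5 CPM. Its call ended when LKB1-deficient replicate 2 or control replicate 3 or 4 was left out (adjusted p = 0.0671, 0.0748 and 0.062). It also ended without both LKB1-deficient replicates 2 and 4 (adjusted p = 0.057) and with total count scaling (adjusted p = 0.073). Smad4, the shared partner, was at 69.1 ± 16.5 and 77 ± 15.8 CPM (adjusted p = 0.594).

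Of 17 tested regulators of SMAD signalling, 6 rose (35.3%, beside 12.4% of all tested genes) and none fell (beside 10.1%). Of these, 3 are negative regulators that TGF-beta is known to induce or degrade. Ski, a corepressor of SMADs, was at 23.6, 26.6, 21.3 and 21 CPM in control and 43.6, 62.7, 38.4 and 79.5 CPM in LKB1-deficient replicates 1 to 4 (log2 fold change 1.27 ± 0.22 SE, edgeR adjusted p = 0.00646). Its relative Skil rose from 39 ± 7.54 to 63.1 ± 7.03 CPM (adjusted p = 0.017), and Pmepa1, which sequesters SMAD2 and SMAD3, from 59 ± 9.81 to 123 ± 35.7 CPM (adjusted p = 0.0128). In all 3 genes every LKB1-deficient library was above every control library. The ubiquitin ligase gene Wwp1 and the deubiquitinase genes Usp9x and Usp15 also rose, Usp9x from 32.3, 32.6, 8.55 and 10.5 CPM in control to 34, 105, 81.1 and 77.4 CPM in LKB1-deficient replicates 1 to 4. The lowest LKB1-deficient value of Usp9x was close to the highest control. Pmepa1 lost its call without LKB1-deficient replicates 2 and 4 (adjusted p = 0.124). Skil lost its call without control replicate 3, LKB1-deficient replicate 4, both LKB1-deficient replicates 2 and 4, or the length trend (adjusted p between 0.0511 and 0.146). The calls of Wwp1 and Usp9x ended when LKB1-deficient replicate 2 or 4 was left out, and when control replicate 3 or 4 was. That of Wwp1 also ended without control replicate 1, and that of Usp9x with no filter on low counts (adjusted p = 0.0619). That of Usp15 (log2 fold change 0.50 ± 0.14 SE, adjusted p = 0.0338) was lost in 10 of 20 alternatives, and its value was -0.13 with the length trend removed. The ligases Smurf1 and Smurf2, partners of SMAD7, were at 10 ± 0.583 and 12.2 ± 0.874 CPM and at 27.1 ± 3.66 and 33.5 ± 4.9 CPM and did not pass. Strap, a SMAD7 partner and the most abundant gene of this role, was at 286 ± 31.2 and 279 ± 28.3 CPM (adjusted p = 0.868). Tgif1, of the same role, was at 37.2 ± 2.09 and 28.5 ± 4.57 CPM and did not pass (adjusted p = 0.0705). Every LKB1-deficient library of Tgif1 was below every control. It passed as lower with upper quartile or total count scaling (adjusted p = 0.0334 and 0.0273).

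None of the 3 other proprotein convertase genes tested, the relatives of Furin, passed: Pcsk7 was at 21.8 ± 1.43 and 16.9 ± 1.4 CPM (adjusted p = 0.062, and as lower 0.0443 under upper quartile scaling, 0.0395 under total count scaling and 0.0486 at a mean CPM of at least 10), Pcsk4 at 15.2 ± 1.29 and 13 ± 2.36 CPM (adjusted p = 0.359) and Mbtps1, the site-1 protease, at 52 ± 1.67 and 52.2 ± 5.9 CPM (adjusted p = 0.994). Pcsk5 and Pcsk6, which also cut ligands of this family, had no count in any library.

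Genes known as targets of the pathway moved both ways: of 10 tested, 4 rose, 3 fell and 3 did not pass, or 70% called. Over all tested genes 22.5% were called, 12.4% higher and 10.1% lower. No direction was set for the listed targets, so no pathway response is read from these counts. Itgae, encoding the CD103 integrin chain that TGF-beta induces in CD8+ T cells, was at 6.29, 6.34, 4.92 and 4.94 CPM in control and 1.13, 0.583, 2.2 and 1.62 CPM in LKB1-deficient replicates 1 to 4. Every LKB1-deficient library was below every control, a log2 fold change of -1.92 ± 0.32 (SE, edgeR adjusted p = 0.00582), and without LKB1-deficient replicates 2 and 4 it was -1.66 (adjusted p = 0.0502). The LKB1-deficient values of Itgae rest on 4, 2, 14 and 6 counts. Fewer than 4 of these libraries reached the filter's 1.49 CPM, so Itgae was tested only because of the control group. Cdkn1a and Cdkn1b, inhibitors of cyclin-dependent kinases, moved in opposite directions. Cdkn1a rose from 165 ± 76.5 to 496 ± 68.3 CPM (adjusted p = 0.0134) and Cdkn1b fell from 56.4 ± 2.68 to 31 ± 2.58 CPM (adjusted p = 0.00341). Of the inhibitors of E proteins, Id2 rose (202 ± 70.2 to 403 ± 56 CPM, adjusted p = 0.0163) and Id3 fell (44.3 ± 21.6 to 6.68 ± 2.02 CPM, adjusted p = 0.00341). Runx1 rose 2.62-fold (adjusted p = 0.00404) and Runx3, a factor of the CD8+ lineage that binds with SMADs, rose 2.35-fold from 168 ± 22.2 to 395 ± 50.7 CPM (adjusted p = 0.00331). Junb, a textbook SMAD target, did not pass (adjusted p = 0.138) and was called higher after removal of the length trend (log2 fold change 0.60, adjusted p = 0.0347). The calls of Cdkn1a and Id2 ended without LKB1-deficient replicates 2 and 4 (adjusted p = 0.0877 and 0.117), and that of Id2 also without control replicate 3 (adjusted p = 0.0534).

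Of 9 genes that TGF-beta is known to restrain in CD8+ T cells, all were tested, 3 rose (33.3%, beside 12.4% of all tested genes) and none fell (beside 10.1%). These were Ifng, encoding interferon gamma (3.16-fold, adjusted p = 0.0088), Fasl, the death ligand gene (25.1 ± 6.36 to 41.6 ± 5.71 CPM, adjusted p = 0.0261), and Il2 (2.64-fold, adjusted p = 0.0405). The groups overlapped for Il2, at 3.14 to 6.24 CPM in control and 4.25 to 23.3 CPM in LKB1-deficient libraries. The calls of Fasl and Il2 were lost in 5 of 20 and 14 of 19 alternatives; Fasl lost its call without control replicate 2 or LKB1-deficient replicate 4, and Il2 whenever 1 library was left out, LKB1-deficient replicate 3 excepted. The cytotoxic genes Gzmb (5850 ± 1810 and 6420 ± 1190 CPM, adjusted p = 0.725), Prf1 (adjusted p = 0.131, and 0.0101 without control replicate 2) and Gzma (adjusted p = 0.298) and the regulators Tbx21, Eomes and Myc did not pass. Myc was called higher by DESeq2 (adjusted p = 0.00665) and after removal of the length trend (adjusted p = 0.0242). Ifng lost its call without LKB1-deficient replicates 2 and 4 (adjusted p = 0.051).

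**Figure D4:**
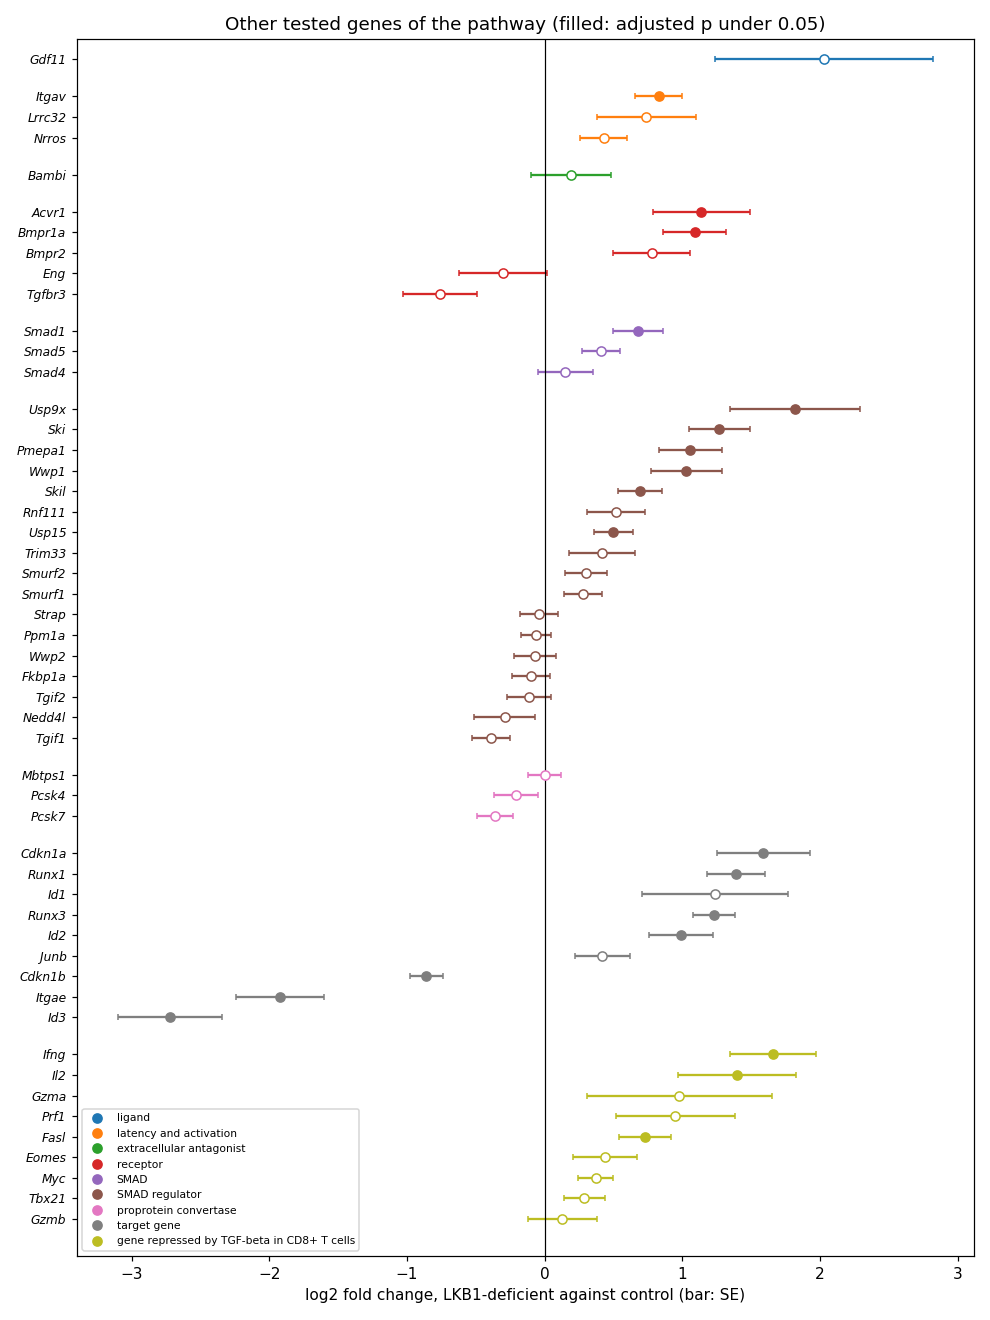
Log2 fold change, LKB1-deficient against control (horizontal axis, bar SE), of 51 of the 52 other tested genes of the pathway, coloured by role and sorted within it, with filled symbols for an adjusted p under 0.05. Of the filled symbols 17 lie above 0 and 3, Cdkn1b, Itgae and Id3, lie below it.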

How the data were processed

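The data are 8 libraries of strand-specific 3' RNA-seq made from oligo-dT primers, per the labels' protocols. The authors deposited, for each library, a table of raw counts by gene symbol. STAR and mm10 are named in the submitters' processing notes and the counter, versions and annotation were not given in the sources used here. From each table, the 5 lines that name no gene were left out. Counts outside genes were 12.1% to 14.3% of gene, ambiguous and unannotated counts in control and 14.9% to 17.5% in LKB1-deficient libraries. Alignments that were not unique, per gene count, were 2.92 to 3.5 in control and 2.21 to 2.65 in LKB1-deficient libraries. The groups thus separated in both measures, and the part of this in the gene values was not tested. Genes were filtered with filterByExpr (minimum count 10, total 15), scaled by TMM and tested with edgeR 4.0.16 (robust quasi-likelihood) in R 4.3.3, without covariates, with Benjamini-Hochberg adjustment at 0.05 over all 10396 genes. Every adjusted p in the text is from this fit unless another setting is named. SE is the absolute log2 fold change over the square root of F. CPM uses TMM-scaled library sizes. The test was also run on simulated counts, drawn for each gene independently. These lack the split of LKB1-deficient replicates 2 and 4 from the rest, so that run does not cover it. The protocol states no molecular identifiers, so counts may include PCR copies. No 2 libraries of a group agreed within sampling noise (chi-square over its degrees of freedom 10.9 to 46.2).

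The 10 genes and all lists were chosen with earlier results of these data known. Named genes are the 10; up to 16 called genes of the wider list by p; the most abundant tested gene of each role; the 5 genes most like Inhba and the 5 most like Furin; and Stk11. Others of the list were added after their values were seen. One target gene of the list is counted but not reported here. Gene positions and transcript lengths are from GENCODE vM21 (GRCm38), and 96.5% of tested genes had a length. Promoter windows are from RefSeq (GRCm38.p6) and matched 8 of the 10 genes by symbol. Alternatives were scaling by upper quartile or by total count, filtering nothing or at a mean of 10 CPM, DESeq2 1.42.0, limma-voom 3.58.1, a replicate block, a term for the identifier prefix, EU libraries alone, each library left out, both LKB1-deficient replicates 2 and 4 left out, thinning to 3454388 counts, and removal of the length trend (lowess span 0.3).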

Additional observations from a re-analysis of the deposited data

How the results depend on the processing

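Inhba, Furin, Tgfb1, Smad3 and Smad7 kept their direction in every alternative in which they were tested, with log2 fold changes of 3.21 to 4.09, 1.49 to 1.86, 1.05 to 1.74, 0.66 to 0.99 and 0.65 to 1.22; Tgfb1 was not tested at a mean CPM of at least 10. Since this contrast was known when they were picked, these values describe the settings and support nothing. Without both LKB1-deficient replicates 2 and 4, 2 of the 10 genes were called, both higher (Inhba and Furin), 6 wider pathway genes were called, 4 of them higher, and over all genes 260 were called, 162 higher and 98 lower. Leaving out 1 library at a time gave 1011 to 2825 calls over all genes (560 to 1472 higher, 441 to 1353 lower) and 13 to 23 in the wider pathway (10 to 19 higher); over all genes 1011 and 1303 were called without control replicates 3 and 4, and 1113 and 1017 without LKB1-deficient replicates 2 and 4. With total count scaling 829 of all genes were higher and 1576 lower, and with upper quartile scaling 1023 and 1446; each gave 6 lower wider pathway genes in place of 3. In EU libraries alone 666 genes were lower. Usp15 turned to -0.13 with the length trend removed. The cause of these changes was not tested, and some settings also had fewer samples.

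Replicate numbers are shared between the groups, but deviations from the group means correlated above 0.1 in only 2 of the 4 same-numbered pairs (r = -0.25 to 0.30). Best matches with their own number were found for 1 of 4 control and 2 of 4 LKB1-deficient libraries, so no pairing by number was seen. These few correlations, with LKB1-deficient replicates 2 and 4 standing apart, cannot exclude a shared preparation of same-numbered samples. The identifier prefix, ET or EU, also goes with the number in both groups. With the replicate block 1902 genes were called over all (2337 without it), and the same 5 of the 10 genes and 18 wider pathway genes were among them; the wider calls it ended were Acvr1 and Il2 (adjusted p = 0.0645 and 0.068). The lower depth of the LKB1-deficient libraries limits Acvr1b, Acvr2a and the untested ligand genes.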
